A study of Sus scrofa with 60 samples.

Results

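The genes described here encode the proteins of the cytosolic ribosome. They were taken by symbol, as RPL or RPS with a number and, in some, a letter or L1 for a variant, together with RPLP0, RPLP1, RPLP2 and RPSA. The ribosomal S6 kinases were left out. This gave 62 genes on 94 probe sets, of 6765 genes on 23999 non-control probe sets in the whole array, with 37 genes of the large subunit and 25 of the small. A probe set is a group of short oligonucleotides that reads 1 transcript. Liver was sampled from German Landrace pigs whose mothers ate a gestation diet with adequate protein (AP), and this maternal diet is shared by all groups. The groups were 15 fetuses of 94 days post conceptionem (94 dpc), 15 newborns of 1 day post natum (1 dpn), 14 piglets of 28 dpn and 16 pigs of 188 dpn. Each animal gave 1 Affymetrix porcine array, 60 in all. The methods state that fetuses and born pigs came from different experiments, so birth and experiment cannot be told apart, and that siblings of a litter were sampled. No group lies between 94 dpc and birth, so late gestation and birth cannot be told apart either. Born piglets were raised by foster sows after the first sampling, and pigs of 28 and 188 dpn were fasted before slaughter, so age and fasting cannot be told apart. The study took the lightest and heaviest siblings at 94 dpc and 1 dpn, but animals of middling growth at 28 and 188 dpn. Between those earlier and later stages, age and this choice of animals cannot be told apart. Litter, sex and weight are absent from the labels, so each animal was treated as independent and every p-value assumes this.

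Ribosomes are built in the nucleolus and cytoplasm from ribosomal RNA and about equal amounts of each ribosomal protein. The messengers of these proteins carry a short pyrimidine tract at their start that lets growth signals set how strongly they are translated, and the liver, which exports large amounts of plasma protein, makes many ribosomes. Most members work only as part of a subunit, whereas a few have paralogs, such as RPL22L1 and RPL7L1, that can take part in ribosome assembly or have other roles.

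Levels are log2(intensity + 16). A change is the later level minus the earlier one, followed by ± its standard error (SE), and a gene rose or fell where limma's adjusted p was below 0.05. Levels of different genes are not compared, because each probe set has its own brightness. Of the 62 genes, 59 passed the filter on dim probe sets in every comparison, namely 35 of the large and 24 of the small subunit. RPL26, RPL30 and RPS15A did not. Their mean levels lay between 6.21 and 7.45 for RPL26, 5.49 and 6.29 for RPL30, and 5.51 and 6.03 for RPS15A over the stages, and the brightest of the Tag control probe sets averaged 6.35 to 6.64. These 3 genes therefore have no tested change in the main fits. In the alternative without the filter all 62 were tested, and 61 differed among the stages by limma's F test. Most other members read near the upper end of the scale: 54 had a mean above log2 14, and the highest member value was 16.5 where the array maxima ran between 15.54 and 16.79. Whether the brightest probe sets were saturated could not be checked. The labelled tissue held its defining markers, with 16 of 16 hepatocyte genes above the array median at every stage. Between array pairs the highest rank correlation was 0.9436 and 0 pairs had identical values. The median array intensity was 169.7 in fetuses, 149.1 in newborns, 116.8 in 28 dpn piglets and 111.2 in 188 dpn pigs, although the trimmed mean had been scaled to about 500 on each array, so the scaling bears on direction and is given with each result.

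Over the 4 stages, with the deposited scaling, the ribosomal protein genes were highest in the fetus and lower at 1 dpn. They reached their lowest levels at 28 dpn and were higher again at 188 dpn. The median of the 62 genes was 15.36 ± 0.20 in fetuses (SD, n = 15, range 15.05 to 15.71) and 14.70 ± 0.16 in newborns (SD, n = 15, range 14.35 to 14.92). It was 14.50 ± 0.12 in 28 dpn piglets (SD, n = 14, range 14.30 to 14.69) and 14.76 ± 0.16 in 188 dpn pigs (SD, n = 16, range 14.56 to 15.22). No animal of 1 dpn reached the lowest fetus, while the later stages overlapped. Animal 8 of 188 dpn stood highest of its stage at 15.22, where the next had 14.92. Without it and the array that correlated least in each other stage, 54 genes fell at 1 dpn, 43 rose at 188 dpn against 28 dpn, and 52 fell over the whole span. Of the 59 genes, 54 had their highest stage mean at 94 dpc and 45 their lowest at 28 dpn. Over 5491 genes with a tested probe set, 37.7% were highest at 94 dpc and 13.7% were lowest at 28 dpn. All 59 differed among the stages by limma's moderated F test, where 93.2% of all probe sets did, and 57 did under quantile normalization. Only the fall at 1 dpn kept the members' median direction under all 3 scalings. Under median centring the members' median was higher at 28 dpn than at 1 dpn and about level over the whole span, and under quantile normalization the rise after 28 dpn was lost, as given for each comparison. Centring raised the median of all genes more in both, so relative to all genes the members' median change was negative there under all 3 scalings.

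**Figure D1:**
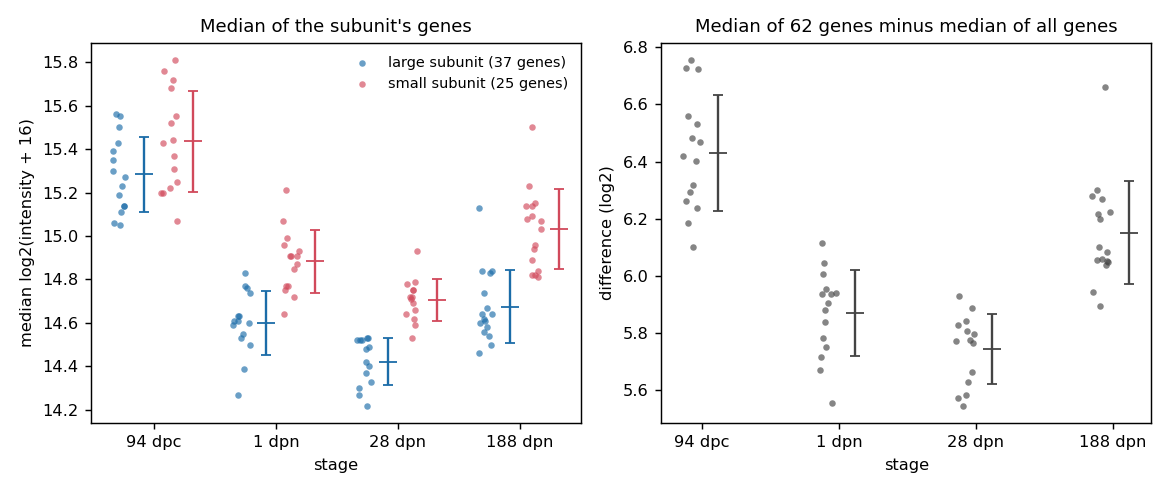
Median log2(intensity + 16) of the large (37) and small (25) subunit genes in each animal by stage, left, and the median of all 62 genes minus the median of all genes of the same array, right. Points are animals and the bars are mean ± SD. The difference averages 6.43 in fetuses, 5.87 in newborns, 5.74 in 28 dpn piglets and 6.15 in 188 dpn pigs. The rise at 188 dpn is lost when arrays are quantile normalized.

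At 1 dpn, against 94 dpc, 53 of 59 ribosomal protein genes fell, where 41.1% of all probe sets fell, and 1 rose, where 23.9% rose. Over 5206 genes tested 35.6% fell. The median change was −0.61, against −0.06 over all genes. Under quantile normalization 42 fell with a median of −0.25, and with each array centred on its median 45 fell with a median of −0.44. In 29 of the 59 the newborns did not overlap the fetuses, all of them lower at 1 dpn, against 9.99% of all probe sets in either direction. RPL5 and RPS4X fell at least 2-fold, 3.39% of the members, where 6.30% of all genes and 8.14% of all probe sets did. By the brightest probe set of each gene, the members' falls were thus frequent but mostly below 2-fold. Other probe sets of RPS27, RPL23, RPS25, RPL9 and RPL12 gave falls beyond 2-fold, with changes of −2.11, −1.535, −1.33, −1.14 and −1.13. Those of RPL35 and RPLP0 rose by 0.64 and 0.38. The log2 ratio of the 3-prime to the 5-prime GAPDH control, a sign of RNA quality, was 0.16 to 0.66 at 1 dpn and 0.81 to 1.298 at 94 dpc, with no overlap. The same ratio for actin averaged 1.76 at 1 dpn and 2.29 at 94 dpc, and with it as a covariate 47 genes fell. The part of the GAPDH ratio was not tested.

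RPL5, which with RPL11 binds the 5S ribosomal RNA and delivers it to the large subunit, had the largest fall among the members' brightest probe sets. It had 14.28, 14.69 and 15.20 as lowest, median and highest level at 1 dpn, against 15.58, 15.85 and 16.08 at 94 dpc, and fell by 1.13 ± 0.08 (adjusted p = 3.20e-13) with no overlap. Its partner RPL11 fell by 0.75 ± 0.10 (adjusted p = 3.96e-08), and the animals of the stages overlapped in it. RPS4X, the copy of a small subunit protein on the X chromosome, was between 13.90 and 14.48 at 1 dpn, against 14.98 and 15.66 at 94 dpc (a fall of 2.003-fold, adjusted p = 2.66e-13), again with no overlap. RPS18, which touches the large subunit across the interface, fell by 0.97 ± 0.11 and RPS25 by 0.96 ± 0.08. RPL7 fell by 0.95 ± 0.08 and RPL34 by 0.93 ± 0.08. Among the proteins of the stalk that draws elongation factors to the ribosome, RPLP1 fell by 0.92 ± 0.08 (adjusted p = 1.49e-11), RPLP2 by 0.59 ± 0.12 and RPLP0 by 0.34 ± 0.08. The dimmer probe set of RPLP0 rose by 0.38 ± 0.11 in the same comparison (adjusted p = 0.00243). Neighbouring falls within these SEs cannot be ranked. The remaining members that fell, which were not singled out, had changes between −0.88 and −0.14.

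The exceptions at 1 dpn were few. RPL7L1, a relative of RPL7, rose by 0.34 ± 0.06 (adjusted p = 2.35e-05), with levels of 12.02, 12.36 and 12.69 as lowest, median and highest at 1 dpn, against 11.91, 12.02 and 12.21 at 94 dpc. RPL22L1, RPL27, RPS16, RPS27L and RPSA were not called, with changes of −0.17, −0.07, −0.16, 0.06 and −0.16. Under quantile normalization RPL27, RPS16, RPS21 and RPSA rose, with changes of 0.14, 0.23, 0.11 and 0.17. Blood cell markers moved in the same period: 11 of 11 erythroid markers fell at 1 dpn with a median of −2.20, their summed intensity being 3350 to 7090 at 1 dpn, against 12100 to 50700 at 94 dpc. No marker of these lists was at 0. Of 7 neutrophil genes tested 7 fell, and of 6 megakaryocyte genes 6 fell, whereas of 9 macrophage genes 5 rose and 1 fell. Their part in the fall of the ribosomal protein genes was not tested. In bulk tissue fewer cells of a type and less RNA per cell cannot be told apart.

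**Figure D2:**
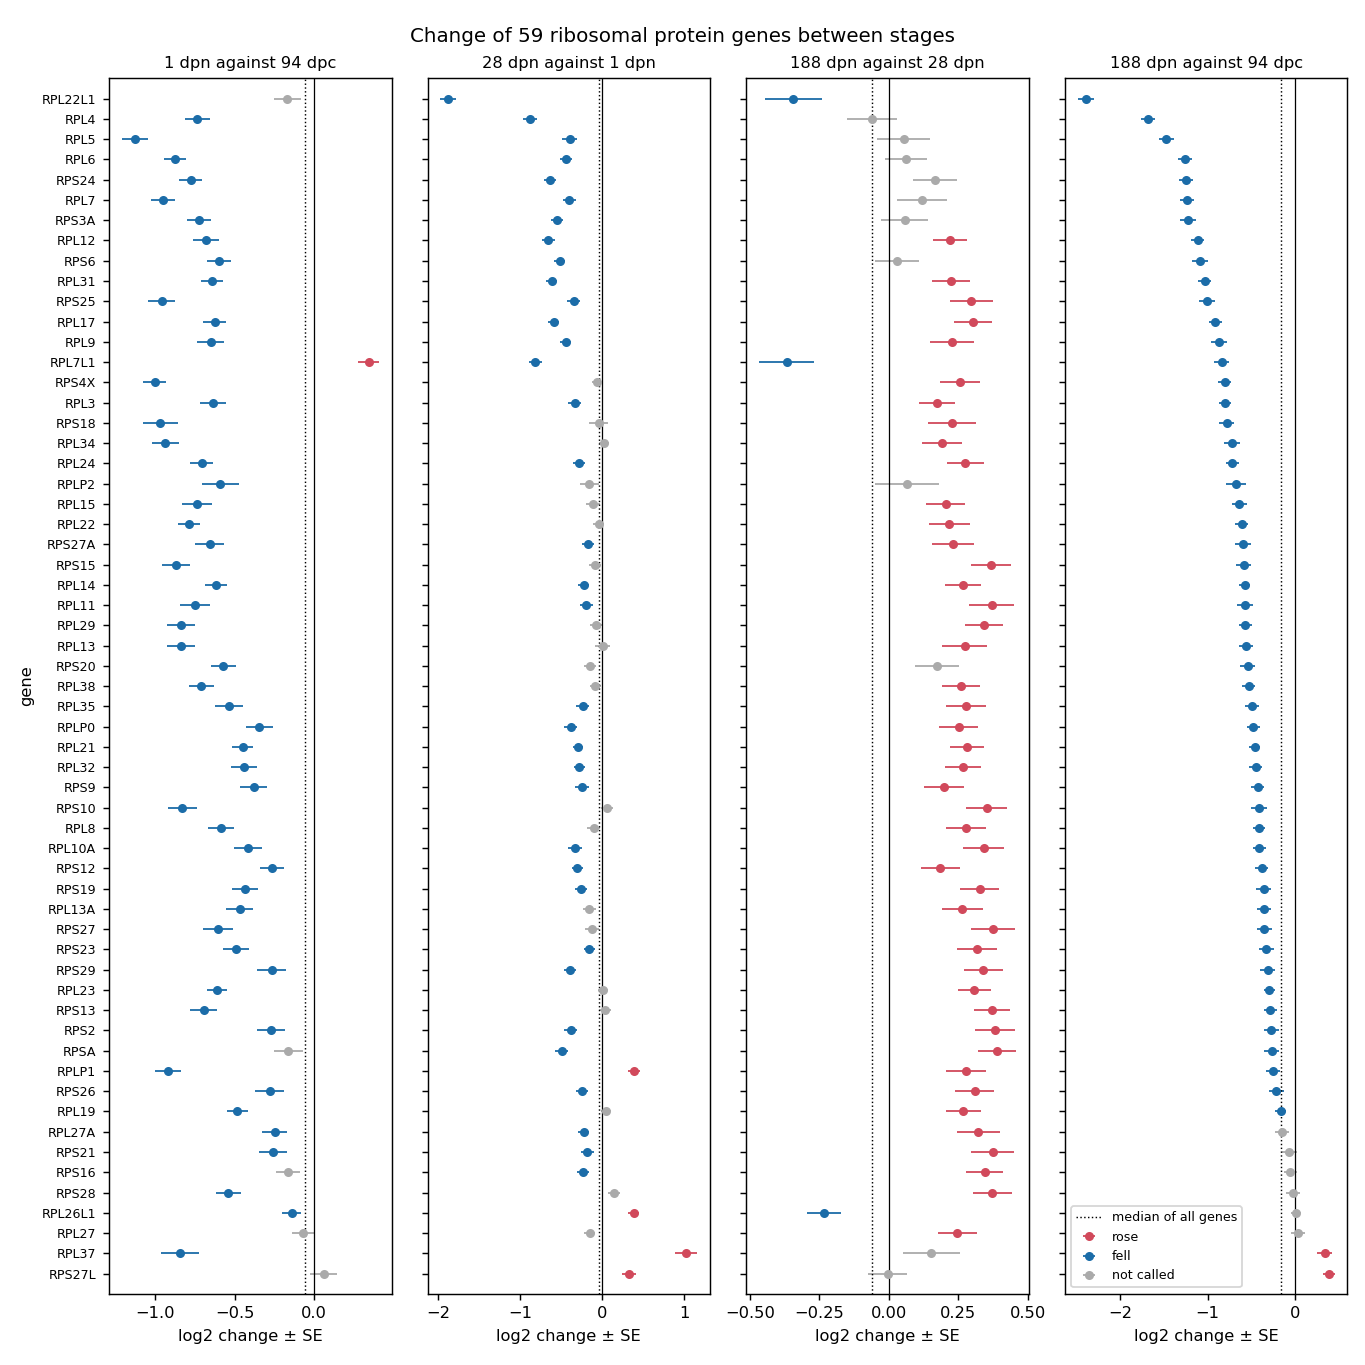
Log2 change ± SE of the 59 tested ribosomal protein genes in the 3 periods and over the whole span, ordered by the last, with genes that rose in red, that fell in blue and that were not called in grey. The dotted line is the median of all genes. At 1 dpn 53 genes fell and at 188 dpn, against 28 dpn, 45 rose, which quantile normalization reduced to 4.

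At 28 dpn, against 1 dpn, 35 of 59 genes fell and 4 rose, where 39.0% of all probe sets fell and 28.5% rose. The median change was −0.23, against −0.03 over all genes. With arrays centred on their median it turned to 0.09, where 22 rose and 9 fell, but that of all genes was then 0.28. Relative to all genes the members' median was −0.19 as deposited, which centring cannot change, and −0.22 under quantile normalization. The actin ratio was 2.85 to 4.41 at 28 dpn and 1.14 to 2.23 at 1 dpn, with no overlap, and with it as a covariate 20 fell and 1 rose. In 9 genes the stages did not overlap, all lower at 28 dpn, a share near the 11.4% of all probe sets. Of the large subunit 20 of 35 fell and of the small subunit 15 of 24. Markers moved in the same period: 12 of 16 hepatocyte genes fell (median −0.43), as did 12 of 15 cell division genes (−0.89) and 6 of 6 neutrophil genes (−1.04), while 5 of 9 macrophage genes and 3 of 4 lymphocyte genes tested rose (medians 0.47 and 1.41). Their part in the ribosomal protein changes was not tested.

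RPL22L1, the paralog of RPL22, had the largest fall of the 59. Its level was 11.02, 11.68 and 12.19 as lowest, median and highest at 28 dpn, against 13.13, 13.52 and 13.84 at 1 dpn. The fall was 1.88 ± 0.10 (adjusted p = 1.08e-16), or 3.68-fold. RPL22 itself changed by −0.04 ± 0.07 (adjusted p = 0.592) in the same period, and by 0.27 under median centring. RPL4, whose extension lines the tunnel through which the new protein leaves, fell by 0.88 ± 0.09 to a mean of 13.64 at 28 dpn, against 14.52 at 1 dpn (adjusted p = 3.48e-10), with no overlap of the animals. RPL7L1 fell by 0.82 ± 0.08 (adjusted p = 1.35e-10), having been higher at 1 dpn than in fetuses. RPL12, at the base of the stalk, fell by 0.66 ± 0.08, although another of its probe sets, the dimmest, rose by 0.64 ± 0.24 (adjusted p = 0.0194). RPS24 fell by 0.64 ± 0.07. RPL31, near the tunnel exit, fell by 0.62 ± 0.07. RPS6, whose phosphorylation by S6 kinase follows growth signals, was between 14.16 and 14.56 at 28 dpn, against 14.68 and 15.09 at 1 dpn, and fell by 0.52 ± 0.06 with no overlap.

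The 4 that rose were RPL37, RPLP1, RPL26L1 and RPS27L. RPL37, a large subunit protein that read dimly here, had 9.09, 9.58 and 10.35 as lowest, median and highest at 28 dpn, against 7.83, 8.50 and 9.10 at 1 dpn (change 1.03 ± 0.13, adjusted p = 6.75e-08). The stages overlapped by a narrow margin. RPLP1 rose by 0.39 ± 0.08 (adjusted p = 6.17e-05), in part the reverse of its fall at 1 dpn, although its dimmer probe set gave −0.03. RPL26L1, a near copy of RPL26, rose by 0.38 ± 0.06, and RPS27L, a paralog of RPS27 that p53 induces in human cells, by 0.33 ± 0.09.

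At 188 dpn, against 28 dpn, 45 of 59 genes rose and 3 fell, where 15.5% of all probe sets rose and 24.1% fell, with a median of 0.26 against −0.06 over all genes. This rise depended on the scaling: under quantile normalization the median was −0.00 and 4 rose while 5 fell, whereas under median centring 47 rose and with the actin ratio as a covariate 28 rose. No ribosomal protein gene separated the stages completely, where 1.24% of all probe sets did. RPSA, the small subunit protein also known as the laminin receptor, had 14.86, 15.14 and 15.68 as lowest, median and highest at 188 dpn, against 14.60, 14.81 and 14.96 at 28 dpn. It rose by 0.39 ± 0.07 (adjusted p = 3.39e-05), and by 0.11 without a call under quantile normalization. RPS2, near the entry of the messenger, rose by 0.38 ± 0.07, RPS21 by 0.37 ± 0.08, RPS28 by 0.37 ± 0.07 and RPS13 by 0.37 ± 0.07. Differences among these rises lie within their SEs. In the hepatocyte list 12 of 16 genes rose in this period, and their median at 188 dpn, 0.30 as deposited, was −0.01 under quantile normalization. In the cell division list 14 of 14 fell at 188 dpn, with a median of −1.41. The part of these in the ribosomal protein changes was not tested.

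The 3 genes that fell have symbols of the L1 form. RPL7L1 fell by 0.37 ± 0.10 (adjusted p = 0.00366), RPL22L1 by 0.34 ± 0.10 (adjusted p = 0.00728) and RPL26L1 by 0.24 ± 0.06 (adjusted p = 0.00264). RPS27L changed by −0.00 ± 0.07. Of the 11 members not called, several had the largest falls over the whole span, among them RPL4 (−0.06 ± 0.09), RPL5 (0.05 ± 0.10), RPL6 (0.06 ± 0.08), RPL7 (0.12 ± 0.09), RPS24 (0.17 ± 0.08) and RPS6 (0.03 ± 0.08).

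Over the whole span, 188 dpn against 94 dpc, 51 of 59 genes fell and 2 rose, where 53.4% of all probe sets fell and 27.9% rose. The median change was −0.53, against −0.17 over all genes. Under median centring, which raises the median of all genes to 0.38, the members' median was 0.01, with 21 risen and 18 fallen. Relative to all genes the members' median was −0.37 as deposited and −0.44 under quantile normalization. Centring subtracts the same value from every gene of an array, so it cannot change this difference. In 17 genes the stages did not overlap, all of them lower at 188 dpn, a share near the 32.1% of all probe sets. The fall was at least 2-fold in 11 genes, 18.6% of the members, where 21.3% of all genes and 25.8% of all probe sets fell that far. By the brightest probe set, falls of this size were thus not more frequent in the members. Other probe sets of RPL9, RPS27, RPL32 and RPL23 gave −1.67, −1.465, −1.14 and −1.06, while those of RPS28 and RPL35 gave up to 1.31 and 0.73. Markers and RNA quality moved over the same span: 11 of 11 erythroid, 7 of 7 neutrophil and 14 of 14 cell division genes fell, with medians of −1.83, −3.19 and −2.53. Of 9 macrophage genes 6 rose and 2 fell (median 0.73), and of 4 lymphocyte genes tested 2 rose and 0 fell (0.79). The 16 hepatocyte genes had a median of −0.16, with 4 risen and 7 fallen. The actin ratio was 3.27 to 4.62 at 188 dpn and 1.54 to 2.84 at 94 dpc, with no overlap. Their part in the result was not tested.

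RPL22L1 fell by 2.39 ± 0.09 (5.25-fold, adjusted p = 9.80e-22), with 10.87, 11.24 and 11.76 as lowest, median and highest at 188 dpn, against 13.11, 13.78 and 13.96 at 94 dpc. Among the brightest probe sets, RPL4 followed with a fall of 1.68 ± 0.08 (adjusted p = 4.55e-19), at 13.13, 13.59 and 14.01 at 188 dpn, against 14.97, 15.26 and 15.60 at 94 dpc. The animals of 188 dpn did not overlap the fetuses in either gene. RPL5 fell by 1.47 ± 0.09, RPL6 by 1.26 ± 0.08, RPS24 by 1.25 ± 0.08 and RPL7 by 1.23 ± 0.08. RPS3A fell by 1.22 ± 0.09, RPL12 by 1.11 ± 0.07, RPS6 by 1.09 ± 0.09, RPL31 by 1.03 ± 0.07 and RPS25 by 1.01 ± 0.09. In each of these 11 genes every animal of 188 dpn was below every fetus.

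RPS24, needed for maturation of the small subunit's RNA, had 13.66, 14.20 and 14.51 as lowest, median and highest at 188 dpn, against 15.15, 15.38 and 15.73 at 94 dpc. RPL7 had 14.01, 14.30 and 14.86 at 188 dpn, against 15.34, 15.63 and 16.09 at 94 dpc. Both lay below every fetus. RPS27A, made as a fusion with ubiquitin, fell by 0.60 ± 0.09 and the stages overlapped in it. The other members that fell had changes between −0.91 and −0.17.

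At the other end, RPS27L rose by 0.38 ± 0.07 (adjusted p = 4.40e-06), with 12.56, 12.78 and 13.07 at 188 dpn, against 12.14, 12.44 and 12.65 at 94 dpc, though it changed by −0.06 under quantile normalization. RPL37 rose by 0.34 ± 0.09 (adjusted p = 0.000827). With the actin covariate neither was called, with changes of 0.27 for RPS27L (adjusted p = 0.169) and 0.25 for RPL37 (adjusted p = 0.331). RPL26L1, RPL27, RPL27A, RPS16, RPS21 and RPS28 were not called, with changes of 0.01, 0.03, −0.15, −0.05, −0.07 and −0.02. Of the 3 tested probe sets of RPS28, however, 1 rose, and their changes ran from −0.04 to 1.31. The dimmest probe set of RPL27 fell, with a change of −0.72. RPS27, the parent of RPS27L, fell by 0.35 ± 0.09.

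**Figure D3:**
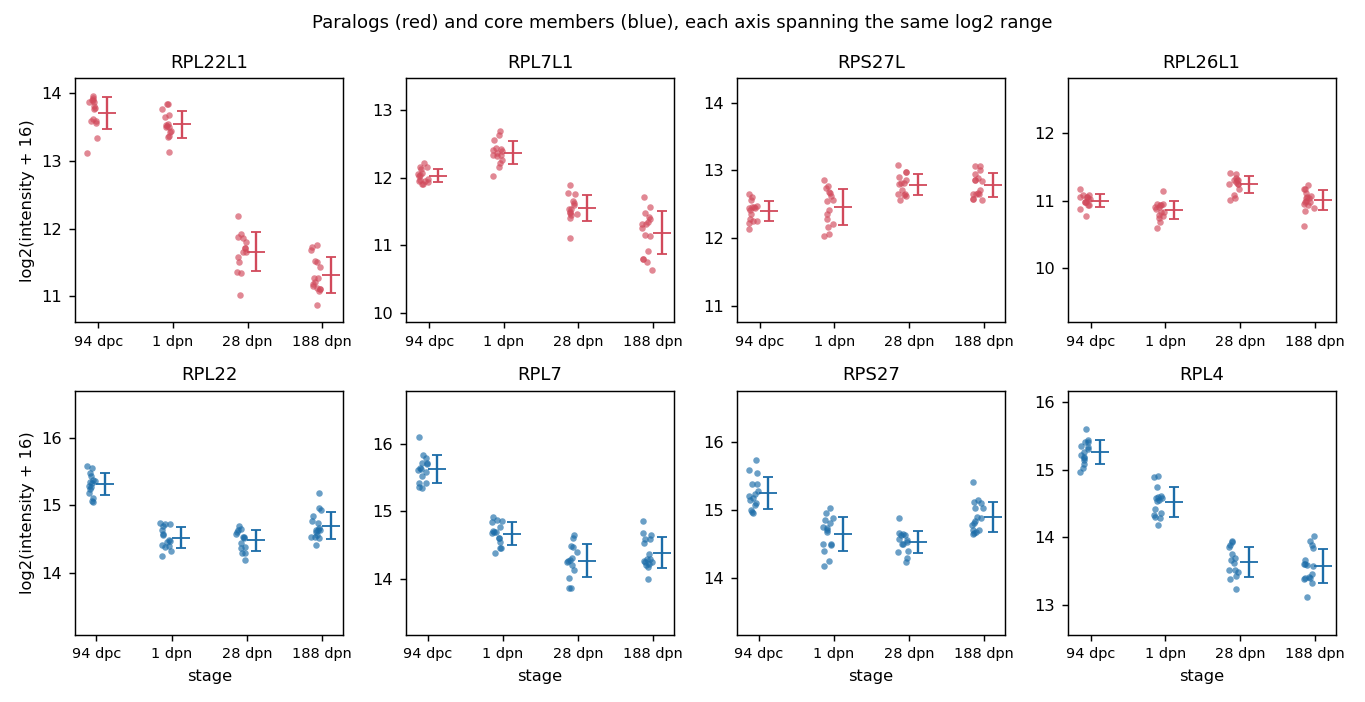
Levels, as log2(intensity + 16), of the paralogs RPL22L1, RPL7L1, RPS27L and RPL26L1 (red, top) and of RPL22, RPL7, RPS27 and RPL4 (blue, bottom) in each animal by stage, with mean ± SD and the same log2 span on each axis. RPL22L1 averages 11.66 at 28 dpn and 13.54 at 1 dpn, while RPL22 averages 14.48 at 28 dpn and 14.53 at 1 dpn.

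Genes of both subunits had the same median direction in each period under the deposited scaling. Quantile normalization parted them at 188 dpn against 28 dpn (−0.01 large, 0.03 small), as median centring did over the whole span (−0.03 large, 0.18 small). At birth the median change was −0.64 for the 35 large and −0.56 for the 24 small subunit genes, in which 32 and 21 fell. At 28 dpn, against 1 dpn, the medians were −0.23 for the large and −0.21 for the small subunit, and at 188 dpn, against 28 dpn, 0.25 for the large with 26 risen and 0.31 for the small with 19 risen. Over the whole span they were −0.57 for the large and −0.37 for the small subunit, with 31 and 20 fallen. In each animal the median of the large subunit genes minus that of the small was −0.15 ± 0.07 in fetuses (SD, n = 15), −0.28 ± 0.07 in newborns (SD, n = 15), −0.28 ± 0.06 in 28 dpn piglets (SD, n = 14) and −0.36 ± 0.08 in 188 dpn pigs (SD, n = 16). The difference was not tested.

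Members that departed from the group were sought with the array's own member median subtracted, which removes a shift that the array's members share. The members lie near this reference by construction and other probe sets do not, so a lower share in the members is no result. At 1 dpn 36 of 59 departed, where 70.5% of all probe sets did. These were 24 above and 12 below the median, with RPL7L1 farthest above (1.01 ± 0.08) and RPL5 farthest below (−0.46 ± 0.07). In the next period 31 departed, against 65.3% of all probe sets, with RPL37 (1.23 ± 0.13), RPLP1 (0.59 ± 0.06) and RPL26L1 (0.58 ± 0.08) above and RPL22L1 (−1.68 ± 0.10) and RPL4 (−0.69 ± 0.09) below. In period III, 188 dpn against 28 dpn, 7 departed, each below it, against 54.0% of all probe sets: RPL7L1, RPL22L1, RPL26L1, RPL4, RPS27L, RPS6 and RPL6. Over the whole span 44 departed, against 77.8% of all probe sets, 27 above and 17 below. The 7 in period III were 18 when the dimmest tested probe set stood for a gene. Relative to the median of all genes, 52, 36 and 50 members departed in the 3 periods and 43 over the whole span.

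Within a stage the members moved together from animal to animal. Over pairs of members the median Pearson's r was 0.89 in fetuses, 0.64 in newborns, 0.51 in 28 dpn piglets and 0.73 in 188 dpn pigs, over 15, 15, 14 and 16 arrays, while the median over pairs of all genes was at most 0.01. The points of a pair share their arrays, the choice of animals by weight differed between earlier and later stages, and the values are descriptions. The movement was not particular to the members, since in fetuses the median of the hepatocyte list followed theirs. Animal 7 of 94 dpc was highest in both, at 15.71 for the members and 15.97 for the hepatocyte genes. Animal 12 of 94 dpc was lowest in both, at 15.05 and 15.15. What bright probe sets share on an array was not tested. Over the 60 arrays the members' own r with the group median ran between −0.50 and 0.98 with a median of 0.91. Outside the rule, the genes most like the group median were EEF1B2 (r = 0.97), RACK1 (0.96), RAN (0.96), LOC100525692 (0.96) and TPT1 (0.95), then EEF1D, EEF1G, EF1ALPHA, SERPINA5 and EIF3K. The arrays span the stages, so these values include the differences between stages.

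Genes that work with the ribosome were read from lists of partners and of ribosome synthesis. The partner list also held FAU, which itself encodes a small subunit ribosomal protein under a symbol that the rule does not take. Of 15 translation partners, elongation and initiation factors and associated proteins, 13 fell and 1 rose at 1 dpn, with a median of −0.9996, against −0.06 over all genes, and of −0.80 under quantile normalization. EIF4B, an initiation factor, fell by 1.95 ± 0.08, NACA, which binds new chains at the tunnel exit, by 1.40 ± 0.08 and EIF3E by 1.32 ± 0.12. RACK1, a small subunit scaffold, fell by 0.64 ± 0.09 and TPT1 by 0.53 ± 0.09. At 188 dpn, against 28 dpn, 9 of the 15 rose and 1 fell, with a median of 0.27 that was 0.03 under quantile normalization. Over the whole span 13 fell and 2 rose, with a median of −0.78 as deposited, −0.84 quantile normalized and −0.23 centred. Those that rose were EEF1A1 (1.74 ± 0.12) and FAU (0.18 ± 0.08). FAU changed by −0.11 with the actin covariate. The dimmer probe sets of EEF1A1 and FAU gave −1.51 and −2.77.

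Most ribosome biogenesis genes were lower at 188 dpn than at 94 dpc, under each scaling (median −0.39 centred and −0.56 quantile normalized). Of 57 tested at 1 dpn, 26 fell and 12 rose, with a median of −0.24 (−0.09 quantile normalized, −0.07 centred), where 35.6% of all genes fell and 29.8% rose. Of 58 tested at 28 dpn, 33 fell and 2 rose, with a median of −0.46 (−0.34 quantile normalized, −0.14 centred), where 35.7% of all genes fell and 32.2% rose. Of 55 tested at 188 dpn, 11 fell and 4 rose, with a median of −0.09, where 28.3% of all genes fell and 17.5% rose. Over the whole span 44 of 58 fell and 8 rose (median −0.94, against −0.17 over all genes, of which 47.7% fell and 34.7% rose). NPM1, a nucleolar chaperone of ribosome assembly, fell by 2.17 ± 0.08 over the whole span and DDX21, a nucleolar helicase, by 1.84 ± 0.09, each with no overlap. NOP58, a core protein of the particles that methylate ribosomal RNA, fell by 1.74 ± 0.12 over the whole span, and KRR1 fell by 2.11 ± 0.22 at 28 dpn. RCL1 rose by 1.33 ± 0.07 and NOP10 by 1.28 ± 0.06 over the whole span. Of 7 RNA polymerase I genes tested, 4 fell and 0 rose at 1 dpn (median −0.38), and 2 fell and 2 rose at 28 dpn (median 0.13). Over the whole span 4 fell and 2 rose. Their median there was −0.46 as deposited, 0.07 quantile normalized and 0.08 centred, so its direction depended on the scaling. Of 6 regulators of ribosomal protein synthesis tested at 1 dpn, 3 rose and 3 fell, with a median of 0.10. AKT1S1, LARP4 and RHEB rose by 0.61, 0.58 and 0.55, and EIF4EBP2, TSC2 and MYC fell by 0.41, 0.36 and 1.68. MYC, a transcription factor, had the largest change and averaged 8.98 in newborns and 10.66 in fetuses.

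**Figure D4:**
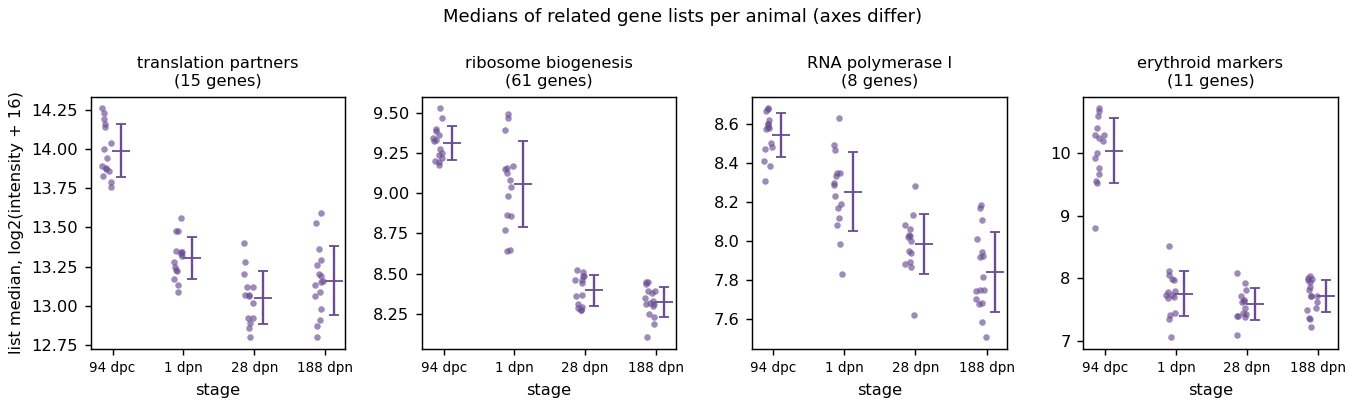
Median log2(intensity + 16) of 4 gene lists in each animal by stage, with mean ± SD and an axis of its own per panel. The translation partners average 13.30 at 1 dpn and 13.99 at 94 dpc, the ribosome biogenesis genes 8.40 at 28 dpn and 9.06 at 1 dpn, and the erythroid markers 7.76 at 1 dpn and 10.03 at 94 dpc.

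Probe sets of a gene did not always move together. Of the 62 genes 24 had several probe sets, up to 3, and in 10 of 78 pairs of gene and period with several tested ones some rose while others fell. This held for RPL12, RPL23, RPL35, RPLP0 and RPS27A. In RPL35 the brighter probe set fell by 0.49 ± 0.08 over the whole span while the dimmer rose by 0.73 ± 0.11. RPLP0's dimmer probe set fell by 0.89 ± 0.07 at 188 dpn, where the brighter rose by 0.25 ± 0.07. Near-identical copies, pseudogenes among them, are common for these genes, and which transcripts a probe set reads is uncertain. RPL10, the reference of the quantitative PCR of the study, shares its probe sets with another gene in the annotation and is not among the 62.

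**Figure D5:**
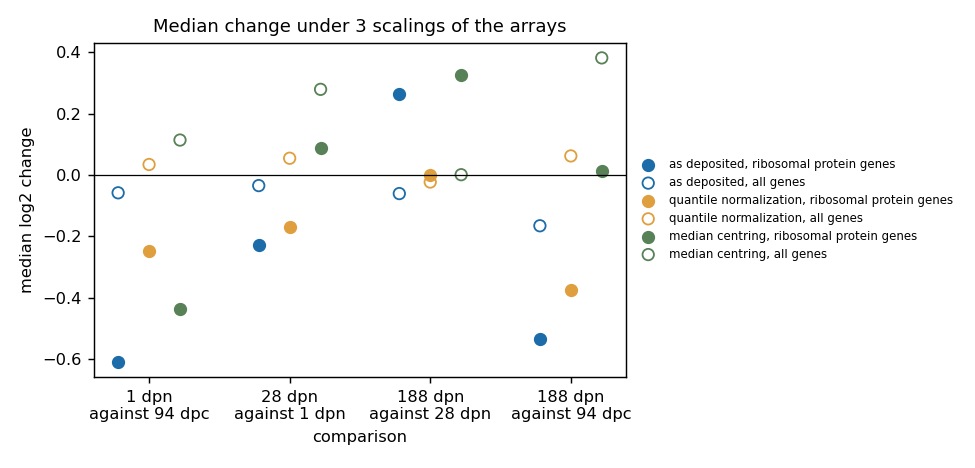
Median log2 change of the 59 ribosomal protein genes (filled) and of all genes (open) in each comparison as deposited, quantile normalized and median centred. The members' median at 188 dpn, against 28 dpn, is 0.26 as deposited, −0.00 after quantile normalization and 0.33 after centring.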

How the data were processed

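The authors deposited 1 linear intensity per probe set and array, made with GCOS 1.1.1 according to the submitters' processing notes. The trimmed mean of each array (2% off each end) was about 500. These are not the GCRMA values that the study tested. Each value was taken as log2(intensity + 16). Probe sets brighter than the array median in 50% or more of the animals of either stage were tested with limma 3.58.1 in R 4.3.3, a pair of stages at a time, and adjusted by Benjamini-Hochberg over all probe sets tested. Of 24123 probe sets 124 were controls, 10069 had 1 gene symbol, 198 several and 13732 none. The brightest probe set on average stood for a gene. All 94 member probe sets had gene IDs in RefSeq Sscrofa11.1, which changed 0 symbols.

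Members and lists were chosen with earlier results of these data known. Named members are the largest and most divergent of each comparison, paralogs, stalk proteins and genes with discordant probe sets. RPL22, RPL11, RPS6, RPS16, RPS3A and RPL27A were added after their values were seen. The test was checked on simulated data. Alternatives were the pseudocount, filter, scaling, an actin covariate, dropping from each stage the array that correlated least with the others, the probe set and the fit to 4 stages. Precision is limited by the number of arrays.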

Additional observations from a re-analysis of the deposited data

How the results depend on the processing

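The fall at 1 dpn kept its direction under every alternative run, with 42 to 54 members falling. The number that rose in it was 7 under quantile normalization, 2 under median centring and 3 with the dimmest tested probe set. At 28 dpn, median centring gave 22 risen and 9 fallen, the actin covariate 1 and 20, and the dimmest probe set 8 risen. Under that centring the median change of all genes was 0.28. At 188 dpn against 28 dpn, quantile normalization gave 4 risen and 5 fallen, the actin covariate 28 risen, and the dimmest probe set 6 fallen. Departures there were 50 relative to the median of all genes and 18 with the dimmest probe set. Over the whole span 4 rose under quantile normalization, 21 rose and 18 fell under median centring, and 0 rose with the actin covariate in limma's test, 0 at an unadjusted p under the threshold. Beyond the construction of each alternative, the cause was not tested. The other counts stayed within 1.5 times their value.

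Of 1683 values of 50 named genes under the alternatives, 1489 were called in the same direction as in the main fit or called in neither. A further 104 lost the call, 24 gained it and 66 changed sign. Direction was compared only where the main or the alternative fit called the gene. Sign changes under quantile normalization at 1 dpn gave FAU 0.29, RPL27 0.14, RPS16 0.23, RPS21 0.11, RPSA 0.17. Sign changes under quantile normalization at 28 dpn gave RPS27A 0.051. Sign changes under quantile normalization at 188 dpn against 28 dpn gave RPL22 −0.043, RPL27 −0.00067, RPL31 −0.043, RPL34 −0.031, RPL35 −0.013, RPLP0 −0.056, RPLP1 −0.00016, RPS18 −0.039, RPS27A −0.071, TPT1 −0.050. Sign changes under quantile normalization over the whole span gave RPS16 0.13, RPS21 0.18, RPS27L −0.063, RPS28 0.23. Sign changes under median centring at 1 dpn gave RPL26L1 0.030. Sign changes under median centring at 28 dpn gave EEF1B2 0.26, FAU 0.23, RACK1 0.094, RPL11 0.12, RPL22 0.27, RPL27 0.16, RPL35 0.076, RPS16 0.078, RPS18 0.27, RPS21 0.13, RPS27A 0.14, RPS4X 0.25, TPT1 0.078. Sign changes under median centring over the whole span gave RACK1 0.064, RPL23 0.25, RPL35 0.052, RPLP0 0.070, RPLP1 0.29, RPS13 0.26, RPS16 0.49, RPS2 0.28, RPS21 0.48, RPS27 0.20, RPS28 0.52, RPSA 0.28, TPT1 0.044. Sign changes with the dimmest tested probe set at 1 dpn gave EEF1A1 −1.54, RPL35 0.64, RPLP0 0.38, RPS27A 0.016. Sign changes with the dimmest tested probe set at 28 dpn gave EIF4B −0.39, RPL12 0.64, RPL35 0.56, RPLP0 0.59, RPLP1 −0.026. Sign changes with the dimmest tested probe set at 188 dpn against 28 dpn gave RPL23 −0.12, RPL35 −0.47, RPLP0 −0.89, RPS27A −0.75. Sign changes with the dimmest tested probe set over the whole span gave EEF1A1 −1.51, FAU −2.77, RPL27 −0.72, RPL35 0.73, RPLP0 0.083. Sign changes with the actin covariate over the whole span gave FAU −0.11. Members lie near the top of the intensity scale, where saturation would shrink differences, and dim probe sets near background limit theirs.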

Other observations

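Control probe sets for ribosomal RNA also differed between stages. A 28S control averaged 12.28 ± 0.40 in fetuses, 12.36 ± 0.48 in newborns, 14.74 ± 0.18 in 28 dpn piglets and 14.78 ± 0.25 in 188 dpn pigs (SD). Another 28S control averaged 13.13, 12.87, 14.78 and 14.9 in the same order, and the 5S control 6.295, 6.56, 7.43 and 7.94. An 18S control averaged 12.27 ± 0.59, 12.23 ± 0.30, 10.27 ± 0.77 and 11.61 ± 0.70 over the stages in that order. Another 18S control averaged 9.04 ± 0.29, 9.03 ± 0.42, 13.86 ± 0.21 and 13.36 ± 0.47, so the 18S controls did not move alike. Their relation to the ribosomal protein genes was not tested.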
